A study of Bos taurus with 14 samples.

Results

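The high-numbered miRNA are the bovine miRNA numbered from miR-2280 upwards in the registry, without miR-2284, miR-2285 and miR-6529. The rule used names alone and no measured value, but it was chosen with earlier results of these data known. It took 67 of the 350 miRNA/precursor pairs listed, which is 59 of 268 mature names and 65 of 304 precursors. They were set beside the 201 pairs numbered below miR-2280 (170 mature names), which are called lower-numbered below. The 13 let-7 pairs and the 69 pairs of the 3 excluded numbers belong to neither class.

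Small RNA was sequenced from small extracellular vesicles (sEV) of milk from 14 Holstein cows with subclinical mastitis, an udder inflammation without visible signs. The control group (n = 7) received a total mixed ration, and the inulin group (n = 7) received the same ration with 300 g/d of inulin, a plant fructan that rumen and gut microbes ferment. After 1 wk of adaptation the diets ran for 5 wk, and 1 mixed milk sample per cow was taken at the end. All 14 cows had the disease, so the data describe diet within mastitis. The total per cow ran from 4165 counts (control cow 2) to 415020 counts (control cow 5), with a median of 72277 over control cows and 112974 over inulin cows. The lowest total puts the limit that a count of 0 allows at 0.0720% of a cow's counts, and the highest total puts it at 0.000723%. Intervals and limits of this kind cover counting error only, because the reads carry no molecular identifiers. As a check of the labelled material, let-7a-5p had counts in 14 cows and 50.7% of all counts over its 3 precursors, which list nearly the same reads (16.9% at 1 precursor), and miR-200c, an epithelial miRNA, had counts in 14 cows. miR-148a, which is known as an abundant miRNA of bovine milk, had counts in 9 cows and 0.00432% of all counts.

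A miRNA is cut from a hairpin precursor, and its mature strand guides Argonaute proteins to messenger RNA that is then repressed. Registry numbers are given in order of submission, so low numbers mostly belong to families found in many animals, and high numbers mostly to miRNA described later, often in 1 species or lineage from sequencing alone. Most names in the class are bovine, but miR-2355, miR-3141 and miR-6715 also name human miRNA. For most of these miRNA no target or function is established, so their role is left out below.

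Several of these miRNA were listed at more than 1 precursor with the same reads. miR-2904 had 2914 counts at each of mir-2904-1, mir-2904-2 and mir-2904-3, with equal values in 14 cows. miR-2887 had 198 counts at each of its 2 precursors. miR-11975 and miR-11976 had 98 counts at each of mir-11976-1 and mir-11976-2, so these 4 pairs were 1 set of counts under 2 names. miR-10174-3p shared all 92 counts, in 14 of 14 cows, with miR-23b-3p listed at the same precursor. It also equalled miR-23b-3p at mir-23b, a member of the conserved miR-23 family with 76 counts, in 11 of 14 cows. Those 11 include cows with 0 counts in both, and control cow 5, which had the most, had 57 against 44. The pairs of miR-3432a (1080 and 1056 counts) were equal in 9 cows and differed by at most 8 counts in a cow. Counting once the pairs of equal counts that share a name or precursor leaves 61 of the 67 pairs, and the 6 repeats are not separate measurements. Some unrelated names also had equal counts, at up to 6 counts, such as miR-11972 with miR-18a and miR-6518 with miR-193a-3p at 6 counts each.

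The class held 15678 counts over the 14 cows, or 0.941% of all counts, and 3 names held most of them. miR-2904 had 8742 counts over its 3 precursors, which is 55.8% of the class with the same reads entered at each. miR-11980 had 2706 counts (17.3%) and miR-3432a had 2136 (13.6%), so that the 3 names together reached 86.6%. With 1 precursor per mature name the class held 8325 counts, of which miR-2904 had 35.0%, miR-11980 32.5% and miR-3432a 12.97%, so miR-2904 and miR-11980 were then nearly level. miR-2887 followed with 396 counts, miR-11987 with 353, miR-11975 with 242, miR-11976 with 196, miR-11971 with 152 and miR-6525 with 102. By number, the block from miR-2880 to miR-2999, which is miR-2887 and miR-2904 alone, held 58.3% of the counts of the class in 5 pairs. The block from miR-11000 to miR-12999 held 24.6% in 23 pairs and the block from miR-3000 to miR-3999 held 13.8%. With 1 precursor per mature name these 3 blocks held 37.4%, 43.3% and 13.2%, and the order of the first and second turned. The 17 pairs from miR-2280 to miR-2879 held 1.19%, the 10 pairs from miR-6000 to miR-6999 held 1.08%, the 5 pairs from miR-10000 to miR-10999 held 0.734% and the 3 pairs from miR-7000 to miR-7999 held 0.389%.

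The share of a cow's counts held by the class differed widely among cows within each group. Among control cows the lowest share was 0.329% (control cow 5), the median 1.01% and the highest 1.91% (control cow 1). In the inulin group the lowest was 0.233% (inulin cow 2), the median 0.478% and the highest 12.02% (inulin cow 4, Wilson 95% interval 11.5% to 12.5%). The groups overlapped, and 12.02% in inulin cow 4 lay far above the next cow of its group, inulin cow 5 at 2.24%. The means were 0.934% ± 0.523 (SD, n = 7) and 2.55% ± 4.26 (SD, n = 7), and the difference of 1.62 percentage points was not larger than the spread between cows (two-sided exact permutation test, P = 0.449, where the smallest P the design allows is 0.000583). Without inulin cow 4 the inulin mean was 0.976% ± 0.948 (SD, n = 6) and the difference was 0.0423 percentage points (exact P = 0.924). The share also depends on what is counted in the total. With let-7 left out of it, the means were 3.74% and 9.10%, the highest share, in an inulin cow, was 36.1%, and the order of the medians turned (1.95% in control cows, 4.10% in inulin cows), with 7 of 7 inulin cows above the control median against 3 of 7 before (exact permutation P = 0.267). With 1 precursor per mature name the difference was 2.45 percentage points (exact permutation P = 0.659) and the highest share 18.6%. Shares are relative to a cow's own counts, so fewer vesicles that carry a miRNA and less of it per vesicle cannot be told apart.

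**Figure D1:**
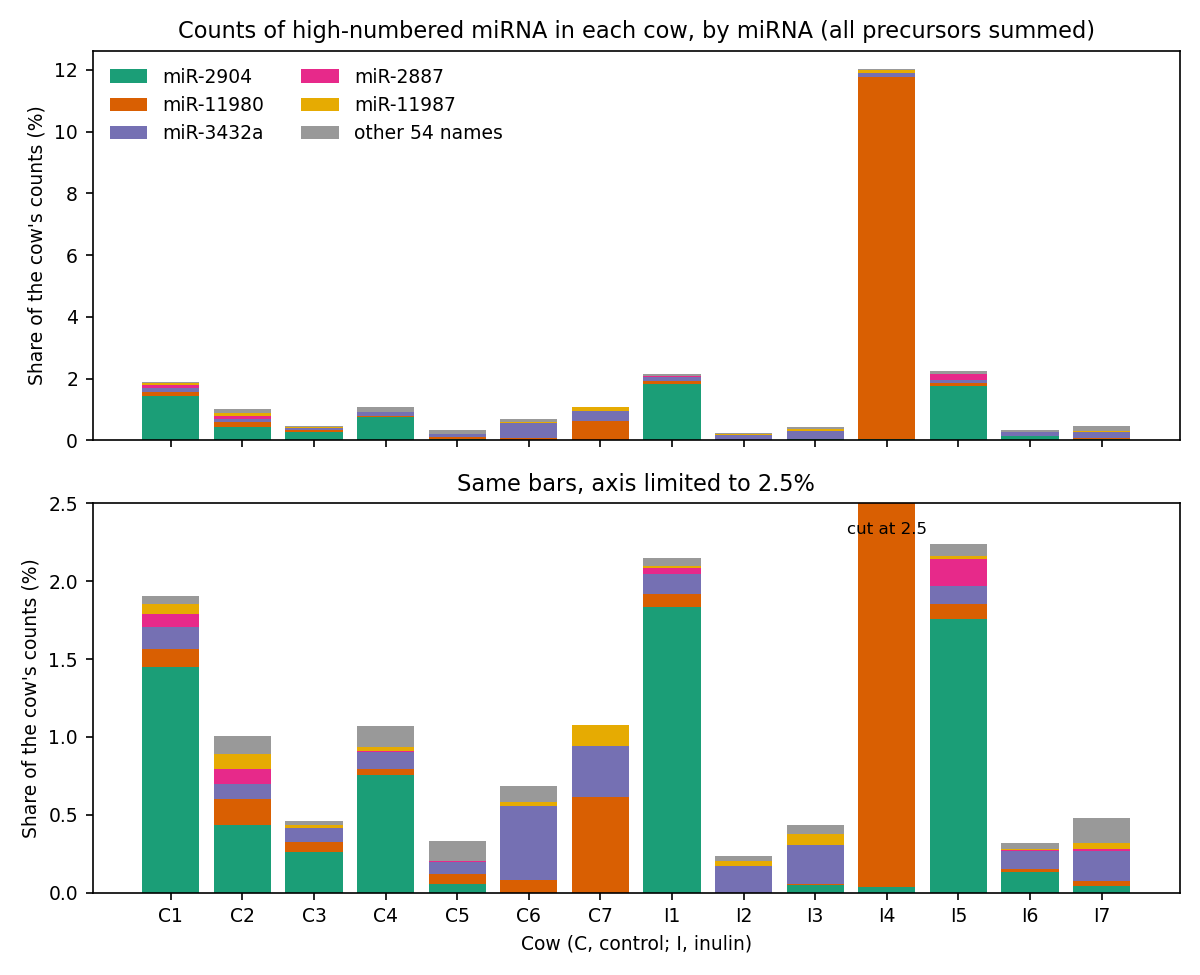
Share of each cow's counts held by the high-numbered miRNA, in percent, stacked by mature name with precursors summed; bars are the 7 control cows (C1 to C7) and the 7 inulin cows (I1 to I7), and the lower panel repeats them with the axis limited. miR-2904 makes up most of the bar in control cow 1 and inulin cows 1 and 5, and miR-11980 makes up nearly all of the 12.02% in inulin cow 4.

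No number block passed the test between diets. The exact permutation P of the share of each block, adjusted over the blocks, was 0.968 throughout. The block from miR-2880 to miR-2999 was 0.451% ± 0.557 in control cows and 0.584% ± 0.900 in inulin cows (SD, n = 7 each). The block from miR-11000 to miR-12999 was 0.261% ± 0.232 in control cows and 1.79% ± 4.44 in inulin cows, where inulin cow 4 had 11.8% and the other inulin cows at most 0.168%. The block from miR-3000 to miR-3999 was 0.190% ± 0.153 in control cows and 0.158% ± 0.0508 in inulin cows (SD, n = 7 each).

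miR-2904 ranged widely among the cows of both diets. At 1 precursor its level in the control group (CPM, counts scaled to a total of 1000000 in each cow) was 0 at the lowest, 872 at the median and 4834 at the highest. In the inulin group it was 0, 172 and 6102 CPM. The highest were control cows 1 and 4 and inulin cows 1 and 5, and the cows without a count were control cows 6 and 7 and inulin cow 2. Control cows 6 and 7 had 30225 and 23155 counts in all and inulin cow 2 had 176076, so the limits that a count of 0 allows there are 99.3, 130 and 17.0 CPM. The groups overlapped throughout, with 2 of 7 inulin cows above the control median. The log2 fold change for inulin against control was 0.42 (SE 1.23, edgeR quasi-likelihood test, adjusted P = 0.985).

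miR-2887 varied among the cows together with miR-2904. It had counts in 9 cows, at 0, 33.7 and 480 CPM (lowest, median and highest) in the control group and at 0, 22.6 and 867 CPM in the inulin group. The highest cow was inulin cow 5, with 49.5% of all its counts, and the 3 cows without miR-2904 had none, as had inulin cows 3 and 4. Across the 14 cows the log2 CPM of both correlated with r = 0.815 (permutation P = 0.00038, adjusted P = 0.00323) and rho = 0.820 (P = 0.00074, adjusted P = 0.00629), and with r = 0.763 in control cows and 0.870 in inulin cows. Leaving out the 2 cows most distant from the median miR-2904 level gave r = 0.768. This relation was chosen after the values were seen, and cows of low total count have coarse values for both. The diet difference of miR-2887 was 0.75 on the log2 scale (SE 1.32, edgeR adjusted P = 0.985).

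miR-11980 had counts in 13 cows and was highest, by far, in 1 of them. In the control group it lay at 384 CPM at the lowest, 827 at the median and 6133 at the highest (control cow 7). In the inulin group it lay at 0 at the lowest (inulin cow 2), 320 at the median and 117191 at the highest (inulin cow 4). That cow had 1737 of the 2706 counts, 19.1 times the CPM of the next highest cow and 97.5% of its own class counts in this name. There miR-11980 ranked 3 among mature names, behind let-7 names, in a library of 14822 counts, and in control cow 7 it ranked 10. Its precursor, mir-11980, lies within BRAT1 in the annotation described below.

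miR-3432a was evenly spread, with an SD of log2 CPM of 0.76 among control cows and 0.34 among inulin cows, against 1.08 and 4.08 for miR-11980. At mir-3432a-2 the control group lay at 386 CPM at the lowest, 553 at the median and 2382 at the highest, and the inulin group at 575, 658 and 1258 CPM. All 14 cows had counts, no cow held more than 19.7% of the summed CPM, and the highest were control cows 6 and 7. The diet difference was -0.11 on the log2 scale (SE 0.54, edgeR adjusted P = 0.985). The related name miR-3432b had 17 counts in 5 cows.

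miR-11987 also had counts in all 14 cows. It lay at 24.1, 265 and 1339 CPM in the control group and at 64.1, 363 and 1282 CPM in the inulin group (lowest, median and highest). Control cow 7 and inulin cow 4, which were also highest for miR-11980, were highest here too, but over the 14 cows the log2 CPM of both gave r = 0.328 (permutation P = 0.256, adjusted P = 0.597) and rho = 0.429 (adjusted P = 0.367). The highest cows had small totals of 23155 and 14822 counts, with 31 and 19 counts of miR-11987. The lowest, control cow 5 and inulin cow 6, had large totals of 415020 and 265214 counts, with 10 and 17 of miR-11987. The ranks of cows by CPM may therefore follow the total, and this relation was not tested. The diet difference was -0.11 on the log2 scale (SE 0.79, edgeR adjusted P = 0.985).

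miR-11971 and miR-6525 had counts in 8 cows each, 4 per group. miR-11971 reached 344 CPM in control cow 4 and 204 in inulin cow 5, with medians of 43.4 and 56.6 CPM. miR-6525 reached 165 CPM in control cow 6 and 160 in inulin cow 7, with medians of 36.1 and 22.6 CPM. Both had cows at 0 in each group, and neither was called between diets (log2 differences of -0.28, SE 1.17, and -0.08, SE 1.13, edgeR adjusted P = 0.985 and 0.987).

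**Figure D2:**
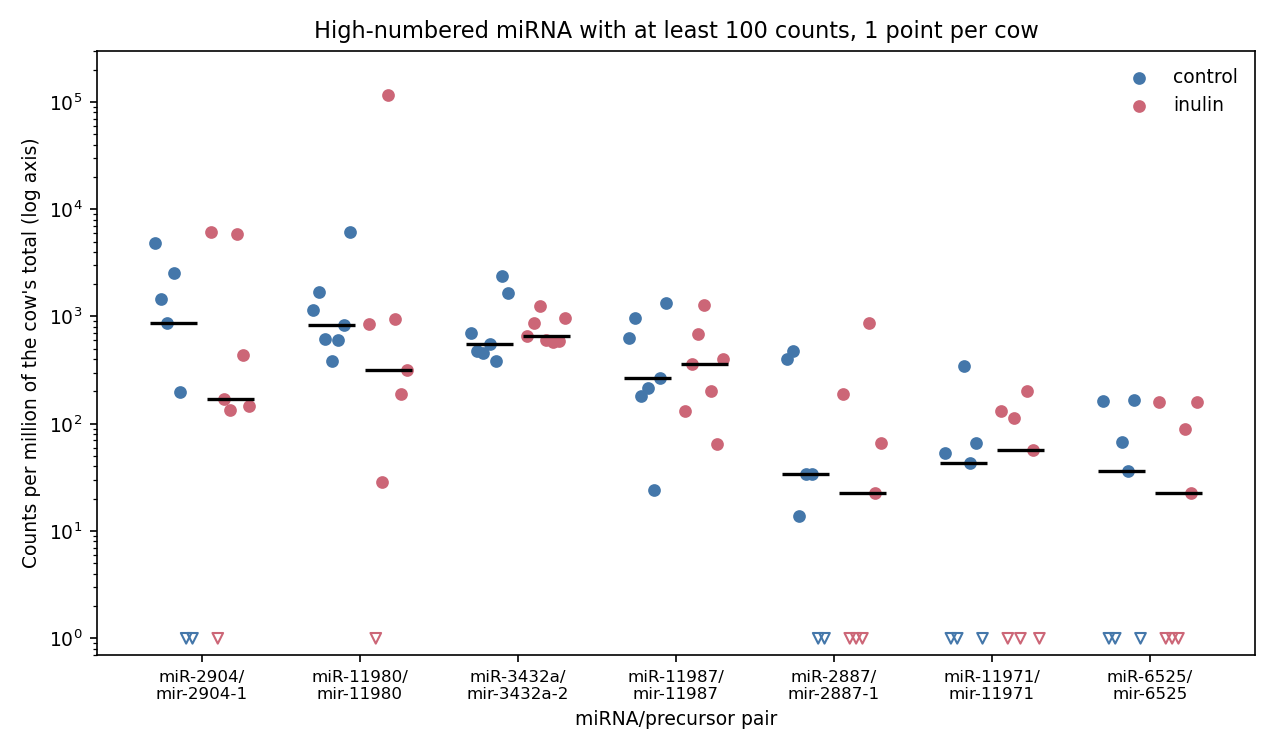
CPM, on a log axis, for the 7 distinct miRNA with at least 100 counts at a precursor, 1 point per cow (blue control, red inulin); open triangles at the bottom are cows with 0 counts and black bars are group medians. Both diets overlap for every miRNA, miR-3432a and miR-11987 have no cow at 0, and miR-11980 in inulin cow 4 stands at 117191 CPM.

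Besides miR-2904 with miR-2887, 16 relations over cows were computed. The precursors of miR-3432a share reads and gave r = 0.999. The 14 relations fixed among the other sets found in at least 10 cows had r between -0.56 and 0.33 and rho between -0.49 and 0.43, and none passed adjustment (permutation test, smallest adjusted P of r 0.129). The lowest r was that of miR-2904 with miR-3432a (r = -0.56, permutation P = 0.0379, adjusted P = 0.129).

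The mature miRNA of the class were shorter than the lower-numbered ones. The listed length averaged 21.2 nt over the 67 pairs and 22.1 nt over the 199 lower-numbered pairs with a length. Of the high-numbered pairs 16 (23.9%) were 20 nt or less, against 18 (9.05%) of the lower-numbered. The 16 include names listed at more than 1 precursor. By mature name the means were 21.4 nt over 59 and 22.1 nt over 169 names. Of these, 11 (18.6%) and 14 (8.28%) were 20 nt or less. miR-2904 is listed at 19 nt, and miR-11980, miR-2887, miR-11971, miR-6525 and miR-11975 at 20 nt, so that pairs of 20 nt or less held 79.0% of the counts of the class, against 37.5% for the lower-numbered pairs. With 1 precursor per mature name the shares were 74.6% and 41.8%. miR-3432a, at 22 nt, and miR-11987, at 21 nt, are the abundant exceptions. Of the lower-numbered pairs from 1000 counts, miR-1246 alone was 20 nt or less (19 nt, 134248 counts). The shares of counts in both classes thus rest on few names. The length is that of the registry entry and not of the reads.

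Within each cow, the mean length of the high-numbered pairs detected was below that of the lower-numbered pairs detected. The difference was -1.35 nt ± 0.271 (SD, n = 14), it ran from -1.78 nt in control cow 3 to -0.854 nt in control cow 5, and it was negative in 14 of 14 cows (two-sided exact sign-flip permutation test, P = 0.000122, the smallest it can give). Weighted by counts, the difference was -1.30 nt. Pairs that list the same reads enter these means more than once, and no alternative for length took them once. The length column is the same in every cow, so cows that detect the same pairs are not independent checks of the lengths themselves. The sign-flip P measures the spread between cows and not between pairs.

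**Figure D3:**
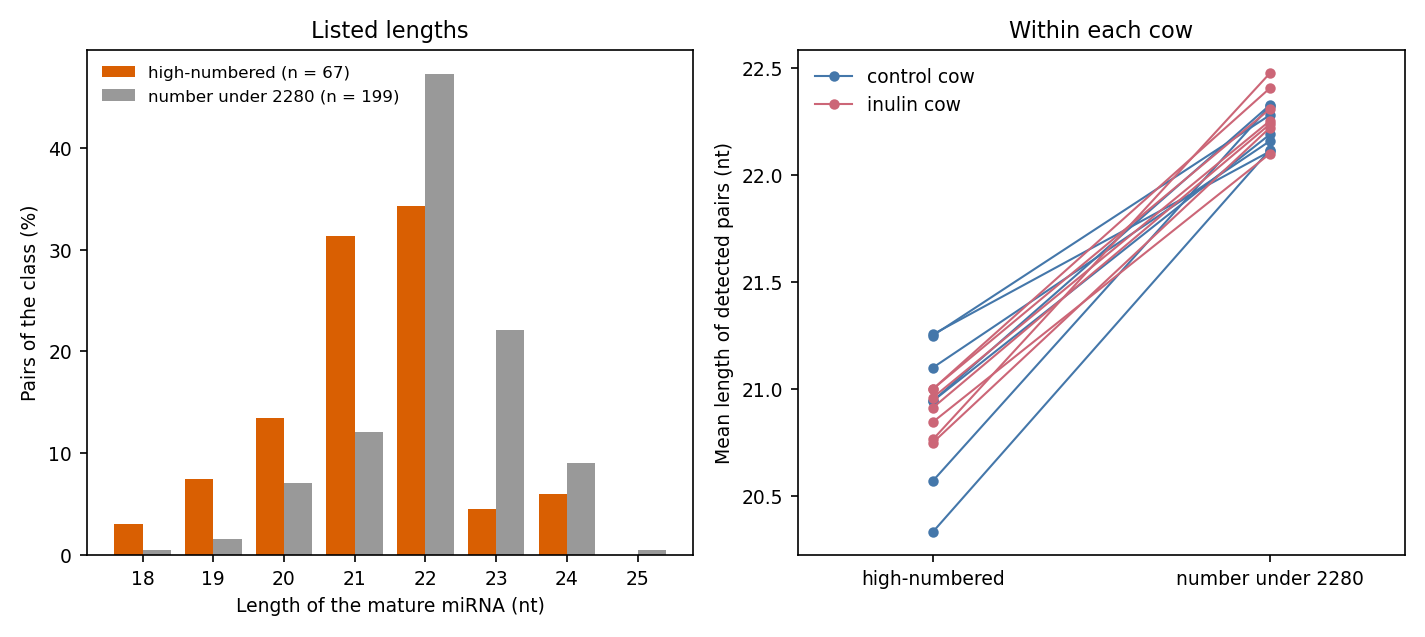
Left, percent of pairs at each listed mature length in nt for the 67 high-numbered and the 199 lower-numbered pairs; right, mean length of the pairs detected in each cow, with 1 line per cow (blue control, red inulin) and an axis that does not start at 0. High-numbered pairs peak at 21 and 22 nt, lower-numbered at 22 nt, and the lines rise in all 14 cows.

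Fewer of the high-numbered than of the lower-numbered pairs were detected in most cows. In the control group between 4 (control cow 7) and 47 (control cow 5) of the 67 pairs had a count, with a median of 18. In the inulin group between 8 (inulin cow 4) and 26 (inulin cow 5) had one, with a median of 23. As a percent of the class, this was -13.2 percentage points ± 8.48 (SD, n = 14) from the percent of lower-numbered pairs detected in the same cow, and it was negative in 12 of 14 cows (exact sign-flip permutation test, P = 0.00061). The exceptions were control cow 4 (1.99 points) and inulin cow 7 (2.49 points). With each cow thinned to 4165 counts the difference was -9.37 percentage points and negative in 14 of 14 cows (exact P = 0.000122). With equal count sets taken once within each class it was -20.8 points and negative in 14 of 14 cows, but that setting also merges unrelated pairs that tie at a few counts. The pairs of a class are not independent, since many share precursors and reads. The same pairs are read in every cow, so these P-values too measure the spread between cows and not between pairs.

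No difference between diets was found in the number detected. It was 21.9 ± 15.6 pairs in control cows and 19.4 ± 6.90 in inulin cows (SD, n = 7 each, exact permutation P = 0.721), and 9.05 and 7.71 pairs after thinning (exact P = 0.412). The share of a cow's detected pairs that were high-numbered was 13.9% ± 4.34 and 14.7% ± 4.40 (SD, n = 7 each, exact permutation P = 0.706). The number moved with depth: the log10 total correlated with it at r = 0.678 (permutation P = 0.00812, adjusted P = 0.0460) and rho = 0.761 (P = 0.0022, adjusted P = 0.0125), with r = 0.668 without the 2 cows of farthest total, 0.758 in control cows and 0.654 in inulin cows. This relation too was chosen after the values were seen.

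Much of the class lay near the limit of detection: 34 of 67 pairs (50.7%) had at least 10 counts over all cows, against 137 of 201 (68.2%) of the lower-numbered pairs. The median pair had 11 counts in 2 cows, against 39 counts in 5 cows. In 1 cow alone were found 25 pairs (37.3%), against 45 (22.4%), and in all cows 3 pairs against 23. Of the 25 pairs, 10 were found in control cow 5 and 8 in control cow 4, which had 415020 and 177212 counts. Pairs found in control cows alone numbered 23 (34.3%) and in inulin cows alone 8, against 45 (22.4%) and 8 of the 201 lower-numbered pairs, and control cow 5 held 52.1% of the counts of its group. For pairs of 10 to 99 counts the median was 5 cows in both classes, for 100 to below 1000 counts it was 9 against 11 cows, and from 1000 counts it was 12 against 14 cows. The 6 high-numbered pairs from 1000 counts include miR-2904 at 3 precursors and miR-11980, which lack cows, while all 21 lower-numbered pairs from 1000 counts were found in 14 cows. These class values were not tested.

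**Figure D4:**
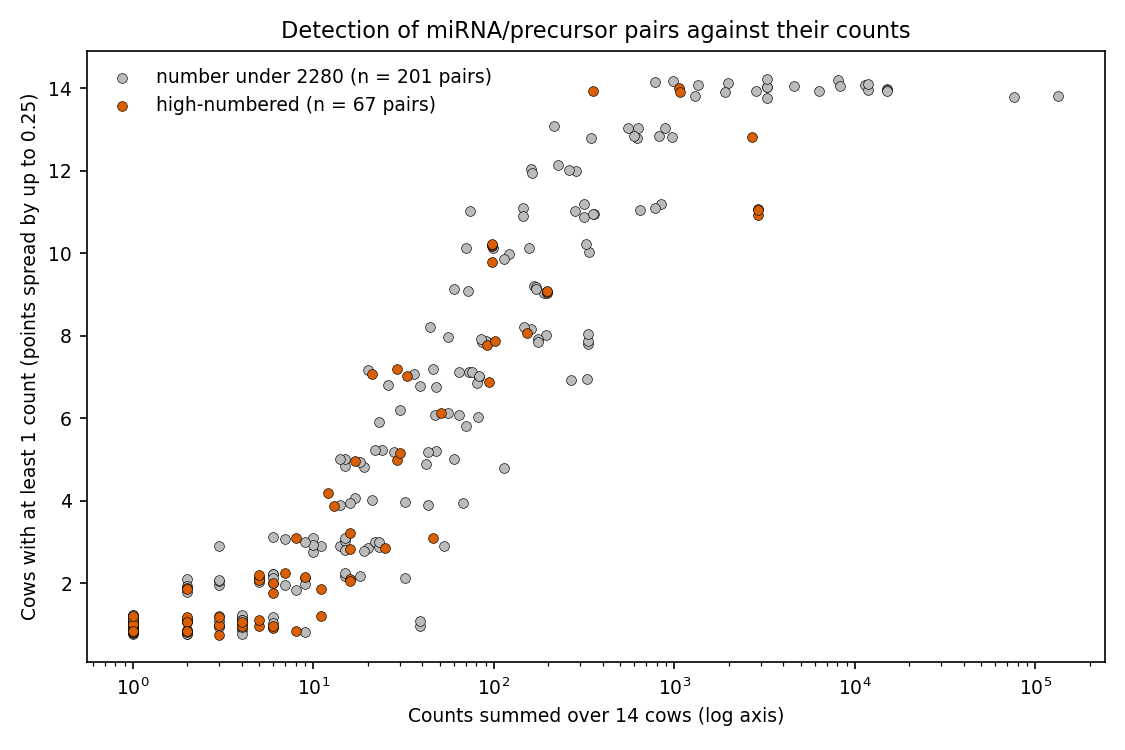
Number of cows with at least 1 count (points spread by up to 0.25) against the counts summed over 14 cows, on a log axis, for the 67 high-numbered pairs (orange) and the 201 lower-numbered pairs (grey). Both classes rise together, and the high-numbered pairs with the most counts, miR-2904 and miR-11980, were found in 11 and 13 cows.

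The cow that contributed most held a median of 37.8% of the summed CPM of a high-numbered pair with at least 10 counts, and 32.9% for lower-numbered pairs. Over 50% from 1 cow was found in 10 of 34 (29.4%) and in 29 of 137 pairs (21.2%). On raw counts it was found in 14 of 34 (41.2%) and 56 of 137 (40.9%), so the shares of both classes were then nearly equal. miR-11980 (89.5% from inulin cow 4), miR-6517 (78.6% from inulin cow 7) and miR-2346 (82.1% from control cow 3) were such pairs, and miR-2388-3p was found in inulin cow 2 alone. The highest CPM of the 34 pairs fell in 13 of the 14 cows, with 6 in control cow 6 and 5 in control cow 2. Those 5 are the 4 pairs of the mir-11976 precursors and miR-10174-3p, each with 1 count in the library of 4165 counts, which reads as 240 CPM.

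For the comparison of diets, 34 high-numbered pairs were among the 210 tested. By the rule of an unadjusted P below 0.05 with a log2 fold change beyond 1 in either direction, 5 of them (14.7%) were called, against 9.05% of all pairs tested and 9.49% of the 137 lower-numbered pairs. In the inulin group 2 were higher, where 2.86% of all pairs were, and 3 were lower, where 6.19% were. The filter of 10 counts over all cows can be passed through 1 group alone, which favours a large fold change. Of the 5, miR-6120-3p and miR-12034 had 16 counts in control and 0 in inulin cows. miR-11975 at mir-11975 had 45 and 1, miR-2388-3p 0 and 11, and miR-11980 624 and 2082. Under 100 counts were 23 of the 34 pairs and 69 of the 137 lower-numbered pairs. The percents called, here and below, therefore do not compare the classes. None of the 34 had an adjusted P under 0.05 (edgeR quasi-likelihood test, smallest adjusted P = 0.274), which also held for all 210 pairs. By the same rule DESeq2 called 0 of the 34 (4.29% of all 210) and limma-voom called 3 (6.67% of all 210), with 0 and 3 at an unadjusted P under 0.05 (5 by edgeR). The median log2 fold change was -0.16 over the 34 pairs and -0.40 over all pairs tested.

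The 3 pairs lower in the inulin group by this rule had few counts, most of them from control cow 5. Scaled to depth, miR-6120-3p and miR-12034 were highest in control cow 6, at 66.2 CPM each from 2 counts. miR-6120-3p had 4, 10 and 2 counts in control cows 4, 5 and 6 and 0 elsewhere (edgeR log2 fold change -4.05, SE 1.26, adjusted P = 0.274). On the pooled reads of each group, with 3 counts as the floor over the inulin group, it was 5.82-fold lower there. Such pooled folds take the counts seen as exact and leave out the spread between cows. They do not bound a diet difference. miR-12034 had 14 and 2 counts in control cows 5 and 6 and 0 elsewhere, again 5.82-fold lower on pooled reads (log2 fold change -3.79, SE 1.30, edgeR adjusted P = 0.274). miR-11975 at mir-11975, a precursor within MIA3, had 7 and 38 counts in control cows 4 and 5 and 1 in inulin cow 5 (log2 fold change -3.43, SE 1.35, edgeR adjusted P = 0.384). No inulin cow had miR-6120-3p or miR-12034, but 4 and 5 of the 7 control cows had none either, and the exact permutation P of their log2 CPM was 0.192, 0.462 and 0.462 in that order. Without control cow 5 each had under 10 counts and was not tested. On pooled reads miR-6120-3p was then 4.56-fold lower, and miR-12034, with 2 counts left, was under the floor, so no fold is given. Of the 30 high-numbered pairs tested without control cow 5, miR-11980 alone was called (3.33%, against 9.04% of all 188 pairs tested). Without control cow 4 the calls numbered 3 of 34 (8.82%, against 6.76% of all 207).

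The 2 pairs higher in the inulin group by the rule each rested on 1 cow. miR-2388-3p had 11 counts, all in inulin cow 2 (log2 fold change 3.55, SE 1.503, edgeR adjusted P = 0.467, exact permutation P of the log2 CPM 1). On pooled reads, with the same floor over the control group, it was 3.36-fold higher, which rests on the reads of that cow alone. It lost the call without control cow 4 or control cow 5 and had no count without inulin cow 2. miR-11980 had a log2 fold change of 3.52 (SE 1.42, edgeR adjusted P = 0.404), while 3 of 7 inulin cows lay above the control median and the mean log2 CPM of the inulin group was below that of the control group (8.90 ± 4.08 in inulin against 10.05 ± 1.08 in control cows, SD, n = 7 each, difference -1.15, exact permutation P = 0.507). Without inulin cow 4 the edgeR log2 fold change was -1.68 (unadjusted P = 0.0799) and the log2 CPM difference -2.45 (exact permutation P = 0.0268). The call was also lost without control cow 1, 2 or 4. With all cows DESeq2 gave -1.03 and limma-voom -1.93 for miR-11980. Its direction thus turned both with 1 library and with the tool, and none is given for the group.

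**Figure D5:**
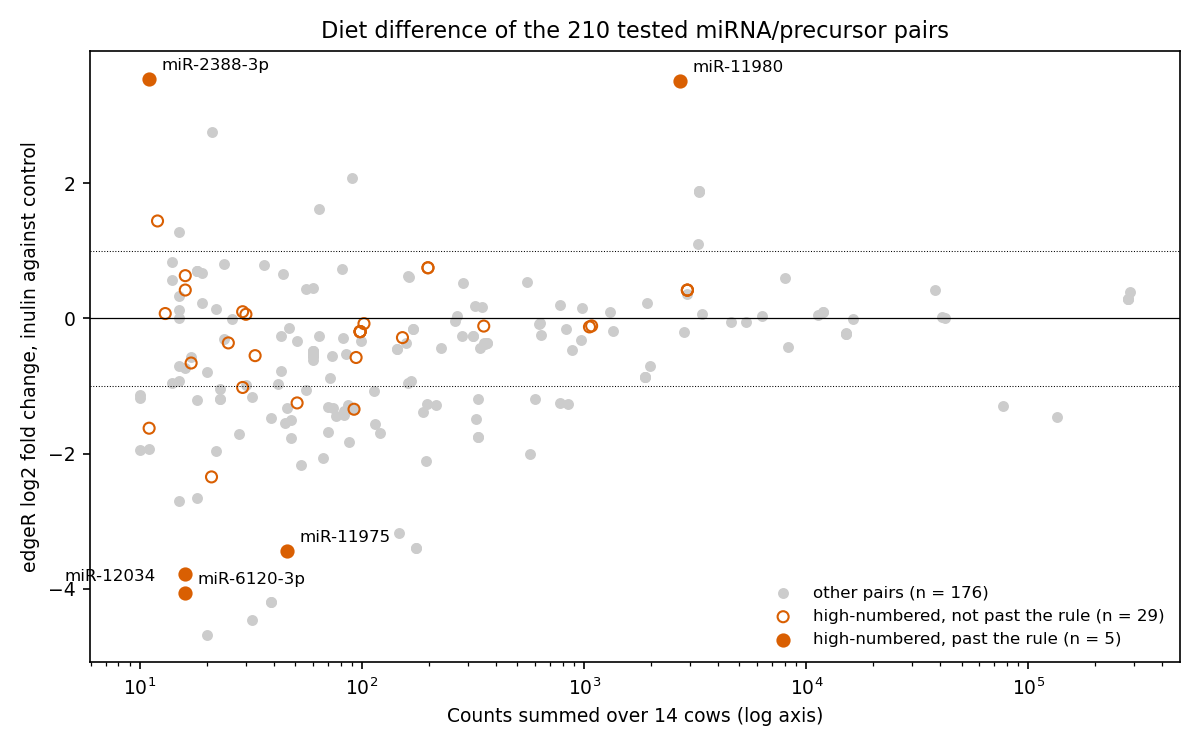
edgeR log2 fold change for inulin against control against the counts summed over 14 cows (log axis) for the 210 pairs tested, with the 34 high-numbered pairs in orange and filled where they passed that rule (dotted lines at 1 and -1). Of the 5 filled points, 4 lie under 50 counts and miR-11980 at 2706 counts.

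The other 19 tested pairs with under 100 counts, of 16 names, had log2 fold changes between -2.34 and 1.44, 6 above and 13 below 0, and none was called (edgeR quasi-likelihood test, smallest adjusted P = 0.690) with all cows. The lowest was miR-12030, with 18 counts in 5 control cows and 3 in 2 inulin cows. limma-voom called it (log2 fold change -2.09), as did edgeR without inulin cow 3 or inulin cow 7. miR-11975 and miR-11976 at the mir-11976 precursors had 98 counts in 10 cows (log2 fold change -0.20, SE 1.14, edgeR adjusted P = 0.985). miR-11986b had 94 counts in 7 cows, 65 of them in control cow 5. miR-10174-3p had 92 in 8 cows, miR-2448-3p 51 in 6, miR-2299-3p 33 in 7, miR-11981 29 in 7 and miR-2419-5p 25 in 3. miR-7857-5p had 30 and 29 at its precursors, in 5 cows each. miR-2387 and miR-6517 had 16 counts each, in 2 and 3 cows. The remaining names were miR-3432b, miR-6523a (13 counts in 4 cows), miR-10179-5p (12 in 4) and miR-2346 (11 in 2).

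The 33 pairs with under 10 counts held 0.772% of the counts of the class, 121 in all, and were not tested. Of these, 24 were found in 1 cow, 8 in 2 cows and 1, miR-2443, in 3 cows. miR-12057 had 9 counts, miR-2372 and miR-2443 had 8 and miR-6522 had 7. With 6 counts followed miR-10176-5p, miR-11972, miR-11973, miR-2458 and miR-6518, and with 5 counts miR-11988, miR-12061, miR-2336 and miR-3141. miR-2426 and miR-6715 had 4, and miR-10167-3p, miR-12056 and miR-6520 had 3. miR-10225b, miR-11994, miR-2332, miR-2389, miR-2410, miR-6527 and miR-7859 had 2. The 8 names with 1 count were miR-11978, miR-11985, miR-12023, miR-12064, miR-2355-5p, miR-2403, miR-2411-5p and miR-6123.

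The position of the precursors relative to genes was read from the RefSeq annotation of assembly ARS-UCD2.0, which is not the build of the counts (ARS-UCD1.2), so names alone are given. By name, 59 of the 65 precursors matched, of which 45 lay within the span of a protein-coding gene on either strand, 3 within a gene of another kind and 11 within none. mir-3432a-1 lay within TP53BP1, a DNA damage response gene, and mir-3432a-2 within HIP1, which encodes a protein of clathrin-coated vesicles. mir-11971 lay within MEGF11, mir-6525 within FASTK, mir-6120 within CSNK1G2, mir-12034 within SNX5, which encodes a sorting nexin of endosomes, and mir-2388 within CUX1. mir-11987 lay in none. The following 4 precursors were picked for what their host is known to do, and nothing is read from their number. mir-10179 lay within FASN, which makes fatty acids, mir-11981 within GPAM, which starts triacylglycerol synthesis, mir-12061 within B4GALT1, which makes lactose with alpha-lactalbumin, and mir-11986b within OCLN, a tight junction protein. The miRNA of these 4 had 12, 29, 5 and 94 counts. The level of the host genes was not measured here.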

How the data were processed

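Milk sEV were isolated on columns from 1 sample per cow, and small RNA was ligated to adapters and sequenced. The authors kept adapter-bearing reads of 15 to 41 nt, checked them with Fastx_toolkit, annotated other RNA with Rfam and bowtie, and counted known miRNA per miRNA/precursor pair with miRDeep2, and the build per the labels is ARS-UCD1.2. The deposited counts are whole reads, not normalized. The deposited RPM values, scaled by a cow's summed counts, were recomputed from the counts and differed by under 0.005. Listed mature lengths were used as deposited.

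Here, shares and CPM used each cow's full total. Diets were compared with edgeR 4.0.16 (quasi-likelihood, TMM, R 4.3.3) over the 210 pairs reaching 10 counts in the 14 cows together, without a replicate block, and P-values were adjusted by Benjamini-Hochberg over them. The SE printed with an edgeR log2 fold change is its absolute value divided by the square root of the F statistic of the test. The test itself gives no SE. The call rule, an unadjusted P below 0.05 with a log2 fold change beyond 1 in either direction, follows the study. DESeq2 1.42.0, which the study used, and limma-voom (limma 3.58.1) were alternatives. Single values used exact permutation over 7 against 7 cows (NumPy 2.4.6), and Wilson intervals used SciPy 1.17.1. The log2 CPM used a prior count of 2, correlations used 100000 permutations, and thinning to 4165 counts used 100 draws. Each tested pair of the class is named, with full values from 100 counts or if called. Members, classes and tests were chosen with earlier results of these data known. The samples are separate cows. Scripts were tested on simulated data. Other alternatives were scaling, filters, 1 precursor per name, shared counts once, and each cow left out.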

Additional observations from a re-analysis of the deposited data

Results flagged for a closer look

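Of 40 groups of 7 cows tested for a single distant cow (Dixon's ratio above its 95% critical value), 8 values were flagged. For normal and independent values about 1 in 20 groups, or 2, would be flagged. Most values here were untransformed shares or CPM, many of them 0, and the groups overlap. The 8 is therefore not to be read as an excess over 2. Inulin cow 4 was far from its group for the share of the class (12.02%), the share of the block from miR-11000 to miR-12999 (11.8%) and the CPM of miR-11980 (117191), which are 3 views of the same 1737 counts. Control cow 7 was far from its group for the block from miR-11000 to miR-12999 (0.747%) and for miR-11980 (6133 CPM), which again overlap. Inulin cow 7 was far for the block from miR-10000 to miR-10999 (0.0160%). Inulin cow 5 was far for miR-2887 (867 CPM) and control cow 4 for miR-11971 (344 CPM). Their part in the diet values is given by the fits without each cow, and no cause was tested.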

How the results depend on the processing

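The mean within-cow differences of detection and length stayed negative and past their test under every alternative run. They were -14.4 to -12.5 percentage points and -1.39 to -1.31 nt over the 14 fits that each leave out 1 cow. Detection gave -20.8 points with equal count sets taken once. Every cow reads the same listed pairs and lengths, so these tests cannot measure the spread between pairs, and their stability does not bear on it. The number of high-numbered pairs called, 5, was 0 with DESeq2 (4.29% of all pairs called) and 3 with limma-voom (6.67%). It was 20 of 67 with no filter on low counts (29.9%, against 21.4% of all 350) and 0 of the 7 left by filterByExpr (4.84% of all 62). With a replicate block it was 1 (2.94%, against 3.33% of all pairs). With each cow left out it ran from 1 (3.33%, against 9.04% of all pairs, without control cow 5) to 7 (22.6%, against 8.70%, without inulin cow 7). The replicate block, which ties cows by number alone, called 7 of 210 pairs, and its call in the class was miR-11980 with a log2 fold change of -1.77. Same-numbered cows are different animals, their deviations correlated with r from -0.33 to 0.26 (2 of 7 over 0.1), and 0 of 7 control cows correlated best with their own number, so the numbers do not pair the cows. For miR-11980 DESeq2 gave -1.03, limma-voom -1.93 and the fits without 1 cow -1.68 to 4.16, so its direction turned with inulin cow 4 and with the tool, and the cause of the reversal by tool was not tested. Under limma-voom the log2 fold change also turned for miR-2904 (-0.45), miR-3432a (0.19), miR-11987 (0.30), miR-2887 (-0.36) and miR-2388-3p (-0.11). Under the replicate block it turned for miR-3432a (0.041), miR-2887 (-0.050), miR-11971 (1.09) and miR-6525 (0.014). Leaving out 1 cow gave -0.56 to 0.95 for miR-2904, -0.40 to 0.24 for miR-3432a, -0.59 to 0.20 for miR-11987, -1.31 to 2.10 for miR-2887, -1.09 to 1.41 for miR-11971 and -0.56 to 0.36 for miR-6525. The pairs other than miR-11980 and miR-2388-3p that turned were not called in the first place. The diet difference in the number detected turned to 0.143 with at least 3 counts and ran from -5.40 to 1.76 without 1 cow. The difference in the share of detected pairs turned to -0.103 with shared counts taken once and to -0.231 after thinning, and ran from -0.457 to 1.89. Without 1 cow the block differences in percentage points ran from -0.0918 to 0.313 (miR-2880 to miR-2999), -0.0508 to 0.0160 (miR-3000 to miR-3999), -0.00487 to 0.00119 (miR-6000 to miR-6999), -0.000950 to 0.00250 (miR-7000 to miR-7999) and -0.152 to 1.81 (miR-11000 to miR-12999). The correlation of miR-11987 with miR-11975 at mir-11976-1 turned to 0.15 without the 2 most distant cows. Causes of these reversals were not tested. The make-up of the class at 1 precursor per name and the pooled folds without control cow 5 were added after seeing the data.

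Totals differ 99.6-fold between cows, and the limit that a count of 0 allows in control cow 2 is 720 CPM. Pairs sharing reads are not separate evidence, the spread between cows is wide, and no call passed adjustment.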
